A study of Homo sapiens with 4 samples.

Results

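The peaks described here lie in the 5' untranslated region (5' UTR) of protein-coding genes in RIP-seq of NSUN2, in which RNA that came down with an anti-NSUN2 antibody (IP) and RNA taken from the lysate beforehand (input) were sequenced. They were chosen from the authors' annotation alone, as the peaks assigned to five_prime_UTR with a protein-coding biotype, and their height or their change with lactate played no part in the choice. There were 647 such peaks among the 48104 peaks of the lactate list and 1558 among the 95785 peaks of the ddH2O list. Of the 116484 merged peaks on which the authors compared the lists, 1835 overlapped a 5' UTR peak by at least 1 base, 471 of them called in both lists, 220 in the lactate list alone and 1144 in the ddH2O list alone. The same split over all merged peaks is not given here. The ddH2O list was the longer one for exon, intron and 3' UTR peaks too, so its excess was not particular to the 5' UTR.

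PANC-1 cells, an established line from a human pancreatic ductal adenocarcinoma, were given 30 mM sodium lactate or ddH2O for 24 h. Each treatment had 1 IP library and 1 input library, 4 libraries in all, and both IP libraries came from wild-type cells of this single line. No value below therefore has a replicate error, and no test of the treatment was possible. Intervals at the 95% level cover only counting error or, for medians, the spread between peaks, starts or genes. Fewer reads at a peak can come from fewer cells, less of the transcript per cell, less binding or a shallower library, and these cannot be told apart in the IP reads alone.

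NSUN2 is an RNA methyltransferase that places 5-methylcytosine (m5C) on tRNAs and on a subset of mRNAs. The 5' UTR is the stretch between the cap and the start codon, which the small ribosomal subunit scans, and it can hold upstream open reading frames and folded G- and C-rich structure that set how well an mRNA is translated. Many genes have several alternative first exons and several 5' UTR exons, so that a 5' UTR can be spread over a large part of the gene. RIP-seq shows which RNA came down with the protein at the resolution of a peak, and it does not mark the modified base.

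As epithelial markers, KRT18 and KRT8, the keratins of simple epithelium, had windows of up to 10822 and 5616 IP reads, while EPCAM and CDH1 had a single peak each with 4 reads. KRT7 and KRT19, also on the list of ductal epithelial markers, are not given here. Of the markers of other cells, CD3E, PECAM1, INS and PRSS1 had no peak, PTPRC had 1 peak with 3 reads and COL1A1 had 1 peak with 97 reads. Windows are the 2000 bases around the summit of a merged peak, and reads are the whole numbers recovered from the deposited signal. With the windows on MT-RNR2, a mitochondrial ribosomal RNA, and MALAT1, a nuclear long non-coding RNA, left out, the lactate IP held 1945000 reads and the ddH2O IP 3536821 reads, a 1.82-fold difference that touches every comparison of the libraries below. Those 2 windows took most of both libraries, whose sums over all windows were 9756054 and 9553835 reads.

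The first transcribed bases are shown for members whose peak covers a start listed by RefSeq (GRCh38.p14), since there the bound stretch can be tied to the cap end of an mRNA. Cytosines, the base that NSUN2 can methylate, are in capitals. The first set holds the start-covering members with the most IP reads, namely TCEAL9 and TCEAL8 of the X-linked family of transcription elongation factor A like proteins, TMCO1, a calcium channel of the endoplasmic reticulum, HES1, the transcriptional repressor downstream of Notch, RBMX, a splicing regulator, and SOX4, a transcription factor. TCEAL9 was taken by the fixed rule and the others after their values were seen.
TCEAL9, chrX:103356506-103356535, plus strand: aatCtggtCCttgttCCCgtCtggataCCa
TMCO1, chr1:165768839-165768868, minus strand: agagttggtCtgttaCtCggtggtggCgga
HES1, chr3:194136148-194136177, plus strand: aCaCaggatCCggagCtggtgCtgataaCa
TCEAL8, chrX:103255126-103255155, minus strand: CCttatagtCCagggCCtgtttCCCtgtag
RBMX, chrX:136880696-136880725, minus strand: CtCgttgCgCagtagtgCtagCggCttCgC
SOX4, chr6:21593751-21593780, plus strand: gCtCtaagCtgCagCaagagaaaCtgtgtg

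The second set holds start-covering members whose signal was more than 2-fold lower with lactate, and all but TFPI were chosen after their values were seen. They are DYNC1I2, an intermediate chain of cytoplasmic dynein, NARS1, the cytosolic asparaginyl-tRNA synthetase, GNL3 or nucleostemin, a nucleolar GTPase, CDK1, the kinase of mitotic entry, DDX24, a DEAD box helicase, and TFPI, the inhibitor of the tissue factor pathway of clotting.
DYNC1I2, chr2:171687469-171687498, plus strand: CttCtCgatCgtgtCagtttgtaaggCgag
NARS1, chr18:57621807-57621836, minus strand: agatCtaCgCtCtCtgatgCaaCgCCggaa
GNL3, chr3:52686032-52686061, plus strand: agttCaCaCgtggCgCCagCggaggCaggt
CDK1, chr10:60778478-60778507, plus strand: gCaCttggCttCaaagCtggCtCttggaaa
DDX24, chr14:94081173-94081202, minus strand: agttgCtgCtgCagCtgaggtaCagCggCg
TFPI, chr2:187554406-187554435, minus strand: agaCagCagCgaCtttaggCtggataatag

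The first 30 bases of these 12 starts held between 4 and 9 cytosines, 4 for TMCO1 and 9 for TCEAL9, TCEAL8, RBMX and NARS1. CNGGG, the context described for NSUN2 sites in mRNA (N is any base), was found in the first 30 bases of TCEAL8 and of no other start shown. Of the next starts by reads, AP2B1 and ELK3, which are not shown, ELK3 held it too, with 155 lactate and 194 ddH2O reads. Among the starts shown DYNC1I2 alone opened with a C followed by 4 pyrimidines, as 5' TOP mRNAs do. CTCCA, the context described for NSUN6, was in none of them. Only the transcribed strand was searched. No match says only that these letters are not in these windows.

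The starts with a 5' UTR peak within 500 bases were close to all starts in base composition. Over these 644 starts the first 50 transcribed bases had a median G and C content of 64% (interval of the median 64 to 66%), against 64% over all 22199 starts of protein-coding genes in the table and 66% over the 11328 starts of genes with any peak. CNGGG was present in the first 50 bases of 35.6% of them (32 to 39.3%), against 37.4% of all starts and 39.6% of starts of genes with any peak, the latter just above the interval. CTCCA was present in 5.75% (4.20 to 7.82%), against 7.04% and 6.02%. A start like that of 5' TOP mRNAs, taken as a C at the first base and a C or T at each of the next 4 bases, was found at 4.04% (2.77 to 5.85%), against 4.54% of all starts and 4.93% of starts of genes with any peak. The intervals of the 644 starts held the share over all starts for each of the 3 motifs.

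The 5' UTR peaks were a small class of the peaks on mRNA. They made up 1.58% (1.47 to 1.71%, Wilson interval) of the 40883 lactate peaks on protein-coding genes and 1.98% (1.89 to 2.08%) of the 78491 ddH2O ones. Among exon and UTR peaks, leaving introns out, the shares were 4.11% (3.81 to 4.43%) and 5.12% (4.88 to 5.37%). The lower share with lactate remained outside counting error when the ddH2O list was shortened to the length of the lactate list by the authors' score, where it was 2.02% (1.89 to 2.16%). In the full lists exon peaks too were a smaller part with lactate, 7668 of 40883 against 16497 of 78491. The 3' UTR peaks were a larger part, 7416 against 12384 of the same totals. A lower share with lactate was thus not particular to the 5' UTR. The lactate peaks fell in 547 genes and the ddH2O peaks in 1211 genes, 1407 genes in either list and 351 in both, which is 64.2% of the lactate genes and 29% of the ddH2O genes. The same shares over all protein-coding genes with a peak are not given here. A single 5' UTR peak was the usual case, with 475 genes in the lactate list and 972 genes in the ddH2O list.

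In height and length the 5' UTR peaks were closer to intron peaks than to the other peaks of mature mRNA. Their median fold over input was 3.24 (middle 50% of peaks 2.69 to 4.78) with lactate and 3.03 (2.43 to 4.85) with ddH2O. Exon peaks had medians of 3.64 and 3.52, 3' UTR peaks 3.64 and 3.51, and intron peaks the same medians as the 5' UTR. The median length was 209 bases with lactate and 224 bases with ddH2O, where exon peaks had 280 and 327 bases, 3' UTR peaks 300 and 332 bases and intron peaks 201 and 215 bases. In the share of peaks with a q-value below 0.05 the 5' UTR lay between introns and exons, at 45.3% (41.5 to 49.1%) with lactate and 51.6% (49.1 to 54.1%) with ddH2O. Introns had 35.1% and 41.8%, exons 55.9% and 62.5%, and 3' UTRs 65.0% and 70.7%. Among the best 1000 protein-coding peaks by score, 10 with lactate (1.00%, 0.544 to 1.83%) and 14 with ddH2O (1.40%, 0.836 to 2.34%) lay in the 5' UTR. Among the best 5000 there were 94 (1.88%, 1.54 to 2.30%) and 97 (1.94%, 1.59 to 2.36%). The intervals at 1000 peaks hold the shares of 1.58% and 1.98% over all protein-coding peaks.

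**Figure D1:**
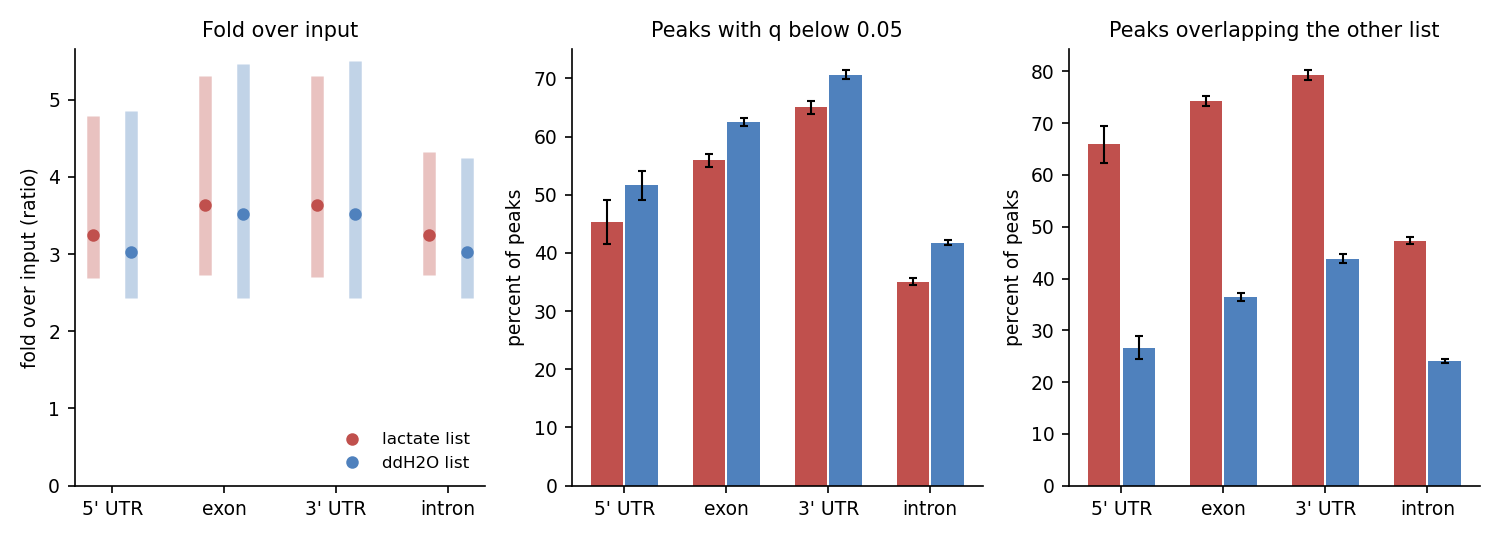
Peaks of protein-coding genes by region (x axis) in the lactate list (red) and the ddH2O list (blue). Left, the fold over input (ratio), with points at the median and bars over the middle 50% of peaks. Middle and right, the percent of peaks with a q-value below 0.05 and the percent overlapping a peak of the other list, with 95% Wilson intervals. The 5' UTR medians of 3.24 and 3.03 lie at the level of introns, while the other measures lie between introns and exons.

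Of the lactate 5' UTR peaks, 66.0% (62.3 to 69.5%) shared 1 base or more with a peak of the ddH2O list, below the 74.2% of exon peaks and the 79.4% of 3' UTR peaks and above the 47.3% of intron peaks. Of the ddH2O 5' UTR peaks, 26.6% (24.4 to 28.8%) overlapped a lactate peak, against 36.4% for exons, 43.8% for 3' UTRs and 24.1% for introns. The partner was itself a 5' UTR peak for 369 of the 427 overlapping lactate peaks, an exon peak for 44 and an intron peak for 8. At the 369 pairs the median fold over input was 3.76 in the lactate list (3.56 to 4.03) and 5.46 in the ddH2O list (4.92 to 5.94). The ddH2O fold was the larger one in 242 pairs (65.6%, 60.6 to 70.2%), and the median of the pair ratio was 1.33 (1.23 to 1.44). The same pair ratio was 1.31 for exons, 1.22 for 3' UTRs and 1.09 for introns, so the larger ddH2O fold at shared peaks was not particular to the 5' UTR.

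A 5' UTR label did not mean that a peak lay near the cap. The RefSeq table used here held a start for the genes of 538 lactate and 1302 ddH2O peaks. Among these, 40.1% (36.1 to 44.3%) and 42.6% (40.0 to 45.3%) had their summit within 500 bases of the nearest listed start, and 15.6% and 18.4% covered that start. A further 41.1% (37.0 to 45.3%) and 38.6% (36 to 41.3%) lay more than 2000 bases downstream on the genome, and 10.6% and 10.8% lay 500 to 2000 bases downstream. The distance is along the genome and not along the spliced mRNA, and the authors' transcript can start elsewhere than the RefSeq one. Exon peaks for comparison had 3.59% and 4.27% of summits within 500 bases, and 3' UTR peaks 0.0327% and 0.0488%. The median fold over input was much alike at both places, with 3.23 within 500 bases and 3.36 beyond 2000 bases downstream in the lactate list and 3.03 at both in the ddH2O list. The 1835 merged peaks lay on the RefSeq span of their own gene in 93.9% of cases, and 17.3% lay also on the span of another RefSeq gene, to which the reads could equally belong, since the SMART-Seq libraries do not keep the strand.

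**Figure D2:**
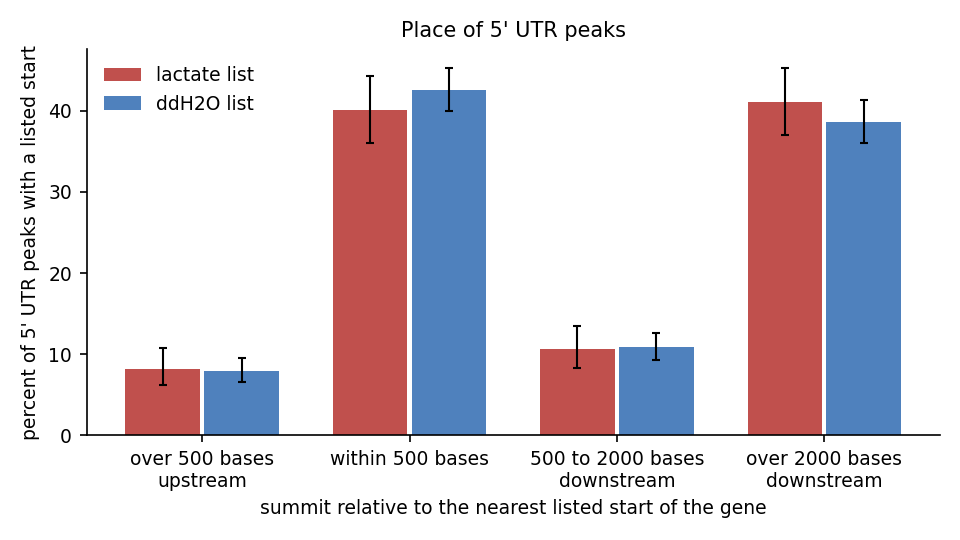
Percent of 5' UTR peaks (y axis) by the place of their summit relative to the nearest listed start of the gene (x axis), in the lactate list (red, 538 peaks) and the ddH2O list (blue, 1302 peaks), with 95% Wilson intervals. About as many peaks lay over 2000 bases downstream (41.1% and 38.6%) as within 500 bases (40.1% and 42.6%).

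Several genes carried a row of 5' UTR peaks spread over long distances, and these genes were picked out after their values were seen. In all, 290 genes had at least 2 merged 5' UTR peaks, and in 143 of them the peaks spanned more than 10 kb. SUCO, which encodes a SUN domain protein of the endoplasmic reticulum, had the most, 10 merged peaks over 46.0 kb assigned to a single transcript. At its densest peak, 24598 bases from the listed start, SUCO had 29 lactate and 100 ddH2O reads with folds of 3.46 and 4.11. The peak nearest the start of SUCO had 0 lactate and 2 ddH2O reads.

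ANKHD1, an ankyrin repeat and KH domain protein, had 8 merged peaks over 88.0 kb on a single transcript, between 36769 and 124184 bases downstream of the start. All of them lay also on the readthrough gene ANKHD1-EIF4EBP3. ANKHD1 held folds of 30.8 and 26.0, among the 5 highest of the ddH2O list, with 144 and 288 ddH2O reads. The lactate library gave folds of 5.77 and 6.68 at these peaks of ANKHD1, with 58 and 105 reads.

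SPATS2L, a cytoplasmic protein linked to stress granules, had 8 merged peaks over 109.8 kb on 7 transcripts. Its densest peak, 103403 bases downstream, held 124 lactate and 257 ddH2O reads, while the peak at 652 bases held 5 and 13 reads. CHD9, a chromatin remodeller, and R3HDM2, an R3H domain protein, had 8 merged peaks each, with 66 and 181 reads at most in CHD9 and 15 and 24 reads at most in R3HDM2. TMCO1 showed the opposite order, with 188 lactate and 746 ddH2O reads at 157 bases from the start and 0 lactate and 10 ddH2O reads at 9294 bases. The window of TMCO1 at 610 bases overlapped the first and held 190 and 741 reads, so both count largely the same reads.

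**Figure D3:**
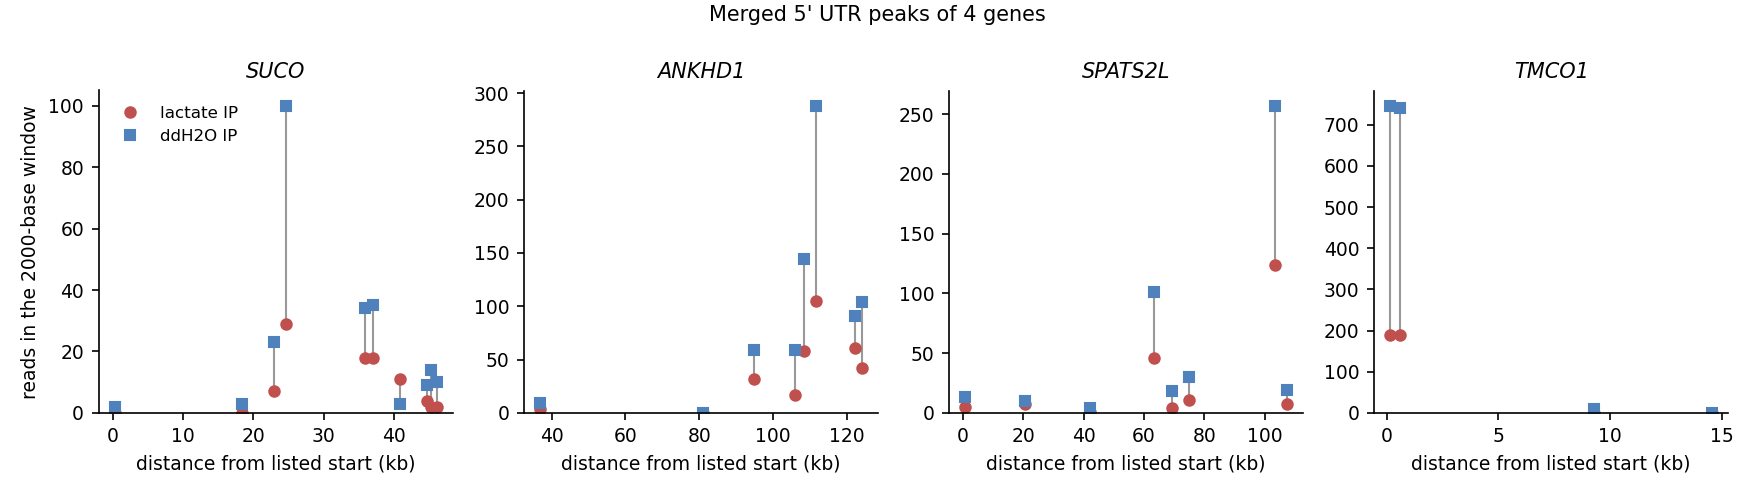
Reads in the 2000-base window (y axis) of each merged 5' UTR peak of SUCO, ANKHD1, SPATS2L and TMCO1 against its distance from the listed start in kb (x axis), for the lactate IP (red circles) and the ddH2O IP (blue squares), with a line joining the libraries. In SUCO, ANKHD1 and SPATS2L the densest peak lies at 24598 bases or farther from the start, in TMCO1 it lies at 157 bases.

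Genes with a 5' UTR peak often had peaks elsewhere as well. In the ddH2O list 69.8% (67.1 to 72.3%) of them also had an exon peak, against 54.9% of all protein-coding genes with a peak, and in the lactate list 52.7% (48.5 to 56.8%) against 41.6%. A 3' UTR peak was less frequent in the lactate list, at 41.1% (37.1 to 45.3%) against 50.6%. In the ddH2O list it was slightly less frequent, at 52.5% (49.7 to 55.3%) against 55.4%, which lies just above the interval. Genes with several peaks of any kind have more chances to be counted in both columns. For 92 genes of the lactate list (16.8%) and 91 genes of the ddH2O list (7.51%) every peak lay in the 5' UTR.

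Among the highest folds over input, beside those of ANKHD1 given above, were those at ARHGEF11, ASAP1, CHD3 and ZC3H11A. ARHGEF11, a guanine nucleotide exchange factor for RHOA, had the highest lactate fold, 33.8 with a q-value of 6.85e-91, and a ddH2O fold of 15.5. Its window, 396 bases downstream of the start at chr1:157045086-157045646, held 110 lactate and 140 ddH2O reads. ASAP1, an ARF GTPase-activating protein, had a peak with folds of 17.7 and 12.2 and another with folds of 15.0 and 32.5.

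CHD3, the ATPase of the NuRD complex, had folds of 15.1 with lactate and 23.1 with ddH2O and 58 and 57 reads. ZC3H11A, a zinc finger protein of mRNA export, had the highest ddH2O fold, 88.6 with a q-value of 4.23e-297, against 11.4 with lactate. Its window at chr1:203796887-203797827 held 133 lactate and 217 ddH2O reads, a ratio of normalized signal of 1.13 (0.901 to 1.40), and lay also on ZBED6, a gene nested in ZC3H11A. The folds over input of ZC3H11A thus differed by far more than the IP signal did.

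A high fold did not go with many reads in every case. ZMYND8, a chromatin reader with a bromodomain, had folds of 15.1 and 8.43 with q-values of 2.29e-24 and 8.05e-22, while its window held 2 lactate and 4 ddH2O reads. Under 5 reads were found at 14.0% (10.5 to 18.4%) of the 293 lactate 5' UTR peaks with a q-value below 0.05, and at 19.4% (16.8 to 22.3%) of the 804 such ddH2O peaks. For exon peaks the same shares were 9.12% and 11.5%, for 3' UTR peaks 2.20% and 3.90%, and for intron peaks 0.102% and 0.483%. Why scores and window reads part company at these peaks was not tested, and the read counts behind the comparisons below were taken as recovered.

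The densest members were CBX3, which encodes the heterochromatin protein HP1 gamma, TCEAL9 and ATAD2, an ATPase with a bromodomain. CBX3 had 954 lactate and 2124 ddH2O reads at chr7:26201610-26201992, 366 bases from its start, with folds of only 1.29 and 2.32 over input. The ratio of normalized signal for CBX3 was 1.18 (1.09 to 1.28), whereas scaled by library sums it was 0.817 (0.756 to 0.882), so its direction turned with the scaling. TCEAL9 had 540 lactate and 1717 ddH2O reads at the start shown above and 595 and 1823 reads in a second, overlapping window, and the first lay also on LOC124905204. ATAD2 had 604 and 1202 reads at its densest peak, with folds of 13.5 and 20.6 and a normalized ratio of 1.21 (1.10 to 1.34). By library sums the ratio for ATAD2 was 0.914 (0.827 to 1.01), so its direction turned with the scaling too.

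Most members, however, held few reads. The median 5' UTR window had 3 lactate and 5 ddH2O reads, against 5 and 7 over all merged peaks, and the middle 50% of windows ran from 0 to 9 and from 2 to 16 reads. No lactate read was recovered at 27.4% (25.4 to 29.4%) of the 1835 windows and no ddH2O read at 13.4% (11.9 to 15.0%), against 21.1% and 8.06% of all merged windows. In total the 5' UTR windows held 20291 lactate and 44141 ddH2O reads, which is 1.04% (1.03 to 1.06%) and 1.25% (1.24 to 1.26%) of the reads outside MT-RNR2 and MALAT1. A neighbouring window overlapped 45.7% of the 5' UTR windows, and such windows share reads.

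The comparison of the IP libraries was limited to the 532 members (29% of 1835) with at least 20 reads in both windows together, where 37925 merged peaks (32.6%) reached the same minimum. A peak was called higher or lower at more than a 2-fold ratio of the authors' normalized signal. With lactate, 155 members were lower (29.1%, 25.4 to 33.1%) and 24 were higher (4.51%, 3.05 to 6.62%). Over all merged peaks with the same minimum, 18.6% were lower and 7.65% were higher. The median log2 ratio of lactate over ddH2O was -0.46 (-0.60 to -0.42) for 5' UTRs, -0.39 for exons, -0.22 for 3' UTRs, -0.04 for introns and -0.20 over all. Of the 155 lower members 101 were not called in the lactate list, where 311 of all 532 members were called in both lists. Calls and signal come from the same IP reads.

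The balance depended on the scaling. When the recovered reads were divided by the sums outside MT-RNR2 and MALAT1, 74 members were lower (13.9%, 11.2 to 17.1%) and 55 were higher (10.3%, 8.03 to 13.2%), beside 8.77% and 17.0% of all merged peaks. Higher members were 13.4% of the called ones under the normalized signal and 42.6% under library sums, and over all merged peaks the same share went from 29.2% to 66.0%. The median log2 ratio of the 5' UTR members was then -0.13 (-0.22 to -0.02) beside 0.13 over all merged peaks, -0.14 for exons, -0.02 for 3' UTRs and 0.45 for introns. The 311 of the 532 called in both lists had medians of -0.33 (-0.43 to -0.24) by normalized signal and 0.055 (-0.04 to 0.16) by library sums, so that the sign turned with the scaling. All merged peaks called in both lists had -0.03 and 0.25, and exon peaks -0.23 and -0.02. The share of higher calls among the 532 was above that of exon peaks, which was 2.14% under the normalized signal and 6.88% under library sums. At windows of like density the 52 members with 200 reads or more had a median log2 ratio of -0.37 (-0.57 to -0.16) by normalized signal and -0.39 (-0.58 to -0.27) by library sums, below the 3' UTR medians of 0.03 and -0.07. Exon windows of that density had medians of -0.14 and -0.23, both above the intervals of the 5' UTR. Those intervals take each member as separate, although overlapping windows, as at TMCO1 and TCEAL9, share reads. They can therefore be too narrow to settle a difference between regions. At 20 to 49 reads the 285 members had -0.47 (-0.68 to -0.38) and 0.06 (-0.08 to 0.18), beside -0.60 and -0.04 at exons.

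**Figure D4:**
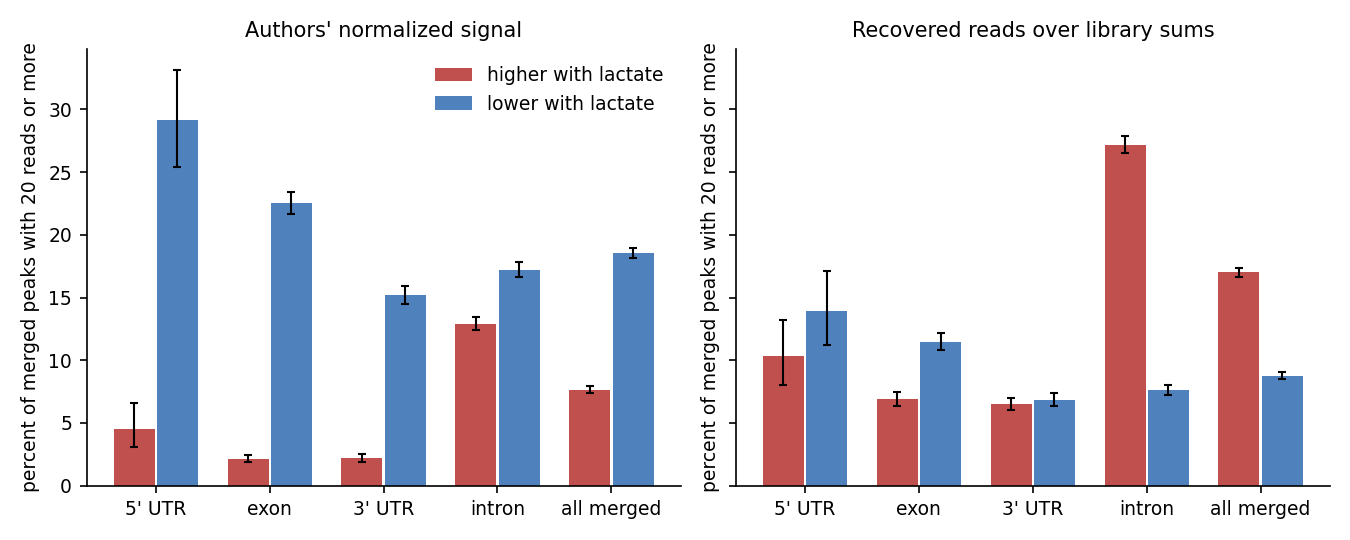
Percent of merged peaks with 20 reads or more (y axis) that were over 2-fold higher (red) or lower (blue) with lactate, by region (x axis), under the authors' normalized signal (left) and under library sums (right), with 95% Wilson intervals. In the 5' UTR 29.1% were lower and 4.51% higher on the left, and 13.9% lower and 10.3% higher on the right.

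By place, the 169 members within 500 bases of a listed start had a median log2 ratio of -0.70 (-0.80 to -0.51), with 56 lower and 5 higher. The 156 members more than 2000 bases downstream had a median of -0.47 (-0.61 to -0.43), with 42 lower and 8 higher. Under library sums the medians were -0.24 (-0.46 to -0.08) and -0.14 (-0.27 to 0.00), with 31 lower and 14 higher within 500 bases and 18 lower and 18 higher beyond 2000 bases. The intervals of both places overlapped under either scaling.

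Under both scalings 72 members of 63 genes were more than 2-fold lower with lactate and 23 members of 21 genes were higher, out of 532. The share of all 37925 merged peaks called under both scalings is not given here. It can be at most 8.77% for lower and 7.65% for higher, the smaller shares of the single scalings. For all 72 lower members the counting interval of the normalized ratio lay below 1, and for 21 of the 23 higher members it lay above 1. Under library sums the interval lay below 1 for 68 of the 72, with SMC6, SPATS2L, TBCE and NFE2L1 as the exceptions, and above 1 for all 23. These members were picked by the ratio of the same reads, so the intervals give no separate support for a difference. The lower members had a median ratio of 0.243 (range 0.0750 to 0.431), and 30 of them lay within 500 bases of a listed start. Of the 72, 54 were called in the ddH2O list alone and 17 in both lists, and of the 23, 5 were called in the lactate list alone and 16 in both. The ddH2O list was the longer one, with 95785 peaks against 48104. The genes named next are those the ranking rule gave, or, where so stated, were taken by their number of reads after the values were seen.

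**Figure D5:**
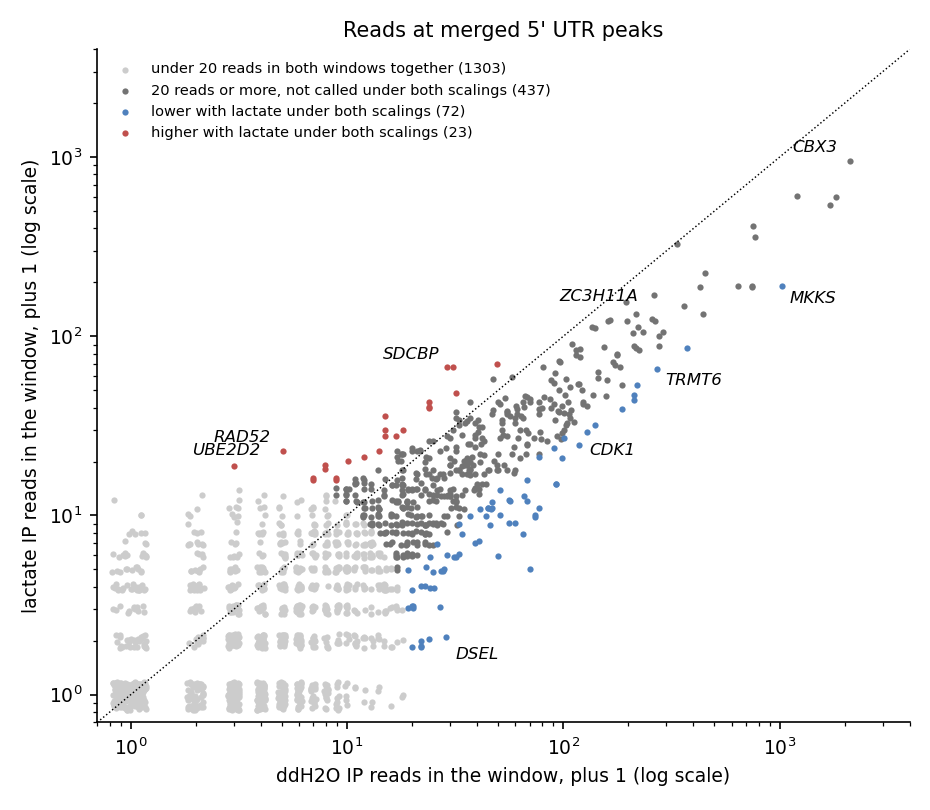
Reads of the lactate IP (y axis) against reads of the ddH2O IP (x axis) in the window of each of the 1835 merged 5' UTR peaks, plus 1 and on log scales, with points shifted slightly at random so that equal counts can be seen and a dotted line at equal reads. Blue points (72) are lower and red points (23) higher with lactate under both scalings, and pale points (1303) had under 20 reads.

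MKKS, a chaperonin-like protein of BBSome assembly whose 5' UTR is known for upstream open reading frames, was the densest of the lower members. At chr20:10413597-10414018 MKKS had 189 lactate and 1022 ddH2O reads, a ratio of 0.401 (0.340 to 0.466) by normalized signal and 0.338 (0.286 to 0.393) by library sums. A second peak of MKKS, 11388 bases downstream of the start, had 4 and 69 reads, the lowest ratio among members with at least 50 reads, 0.0904 (0.0194 to 0.197). Both lie also on the RefSeq genes LOC128706665 and LOC128706666, which overlap MKKS.

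The other members with the lowest ratios among those with at least 50 reads were BROX, a Bro1 domain protein, ASAP1, TFPI and BUD31, a splicing factor. BROX had 5 lactate and 49 ddH2O reads, a ratio of 0.150 (0.0396 to 0.318). At the first of its peaks named above, ASAP1 had 7 and 64 reads, a ratio of 0.161 (0.0553 to 0.312), although its fold over input was the higher one in the lactate list. TFPI and BUD31 each had 9 lactate and 73 ddH2O reads, a ratio of 0.182 (0.0731 to 0.333). The peaks of BROX and BUD31 were called in the ddH2O list alone with folds of 3.03 and 1.63 and q-values of 0.140 and 0.275, both above 0.05. At the start of TFPI the peak was called in the ddH2O list alone, with a fold of 2.05 and a q-value of 1.34e-05.

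FCF1, TRMT6, NARS1 and GNL3 were among the lower members with the most reads, and were named for that after the values were seen. FCF1, needed for processing of the small ribosomal subunit RNA, had 85 lactate and 371 ddH2O reads, a ratio of 0.428 (0.331 to 0.539), and a fold of 9.37 over input in the ddH2O list alone. TRMT6, a subunit of the tRNA m1A methyltransferase, had 65 and 269 reads at a peak 6290 bases from its start and 38 and 185 reads at another. NARS1 had 43 and 211 reads at its start, a ratio of 0.347 (0.239 to 0.474), with folds of 2.76 and 7.16. GNL3 had 31 and 140 reads, a ratio of 0.356 (0.228 to 0.516).

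The next genes were likewise chosen after their values were seen. DYNC1I2 had 53 lactate and 218 ddH2O reads at its start, a ratio of 0.420 (0.301 to 0.561). GART, an enzyme of purine synthesis, had 46 and 211 reads, a ratio of 0.372 (0.260 to 0.506), but this peak lies 266 bases upstream of its listed start, outside its RefSeq span and on its neighbour SON. CDK1 had 24 and 117 reads, a ratio of 0.321 (0.191 to 0.485), with a fold of 9.57 and a q-value of 1.16e-49 in the ddH2O list and no 5' UTR peak in the lactate list. HDAC2, a histone deacetylase, had 10 and 44 reads, a ratio of 0.319 (0.133 to 0.597), although it was called in both lists with folds of 12 and 21.7, and HDAC2-AS2 overlaps it there. ITGB1, the integrin beta 1 subunit, had 10 and 45 reads, a ratio of 0.312 (0.130 to 0.584), with folds of 4.65 and 11.4.

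Members with the highest ratios among those with at least 50 reads were SDCBP, PFKP and RERE. SDCBP, which encodes the scaffold protein syntenin-1, had 66 lactate and 30 ddH2O reads at one peak and 66 and 28 at a neighbour whose window overlaps it, with ratios of 3.18 (2.07 to 5.16) and 3.38 (2.18 to 5.57). The first SDCBP peak had q-values of 3.25e-13 with lactate and 0.174 with ddH2O. Its neighbour was called in the lactate list alone, with a fold of 2.19 and a q-value above 0.05. PFKP, the platelet-type phosphofructokinase of glycolysis, had 42 and 23 reads 365 bases from its start, a ratio of 2.48 (1.49 to 4.41), and its peak was named 5' UTR in the ddH2O list alone, with a fold of 4.68. RERE, an atrophin family corepressor, had 39 and 23 reads, a ratio of 2.30 (1.36 to 4.10), counted at 2 merged peaks with the same reads. Of these RERE peaks, 1 was called in the ddH2O list alone, with a q-value of 0.140.

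Other higher members, taken by reads or ratio after the values were seen, had fewer counts. UBE2D2, a ubiquitin-conjugating enzyme, had 18 lactate and 2 ddH2O reads and a fold of 8.93 in the lactate list alone. The ratio for UBE2D2 was 6.88 (2.34 to 86.9) by normalized signal and 11.5 (3.92 to 145) by library sums. CDC42, a small GTPase of cell polarity, had 35 and 14 reads, a ratio of 3.15 (1.72 to 6.60), also in the lactate list alone. RTN4, a reticulon of the endoplasmic reticulum, had 69 and 48 reads near its start, a ratio of 2.19 (1.5 to 3.26) and folds of 7.91 and 6.09. SMAD3, the TGF-beta signal transducer, had 27 and 14 reads, a ratio of 2.40 (1.26 to 5.11). ACVR1B, an activin receptor, had 15 and 8 reads, and its interval of 0.876 to 6.0 included 1.

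Within genes, the 5' UTR was set against other regions of the same gene, by the merged peak with the most reads in each region and at least 20 reads, leaving out windows that overlap. In the 199 genes with both, the median log2 ratio was -0.39 (-0.56 to -0.27) at the 5' UTR and -0.08 (-0.17 to 0.01) at the 3' UTR under the normalized signal, with a median difference of -0.32 (-0.49 to -0.17) and the 5' UTR lower in 127 genes (63.8%, 56.9 to 70.2%). Under library sums the median difference was -0.03 (-0.23 to 0.19), with the 5' UTR lower in 101 genes. Against exons, in 201 genes, the difference was -0.32 (-0.47 to -0.08) and -0.06 (-0.23 to 0.02). In the normalized signal the log2 ratio is raised more at dense than at sparse windows, and in these genes the 3' UTR window was the denser one, with a median of 172 reads of both libraries against 43 at the 5' UTR.

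Single genes differed between their ends by more than the scaling did, and these were chosen for that difference. DSEL, an epimerase of dermatan sulfate, had 1 lactate and 28 ddH2O reads at the 5' UTR and 59 and 49 reads at the 3' UTR. HP1BP3, a heterochromatin-binding protein, had 1 and 21 reads at the 5' UTR and 427 and 561 at the 3' UTR. SURF4, a cargo receptor, had 1 and 23 reads at the 5' UTR and 261 and 501 at the 3' UTR.

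CAST, the calpain inhibitor calpastatin, had 8 and 59 reads at the 5' UTR and 199 and 396 at the 3' UTR. Of the higher members, PFKP had 360 and 745 reads at the 3' UTR, with a log2 ratio of 0.10 there and 1.31 at the 5' UTR. HOXC6, a homeobox factor, had 18 and 7 reads at a 5' UTR window outside its RefSeq span and on LOC124902939, and 99 and 238 at the 3' UTR.

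Gene lists were described by their counts beside the 1407 of 12687 genes with a peak (11.1%) that had a 5' UTR peak in either list. The intervals of 3 of the 9 lists, the SRSF and HNRNP genes, the stress genes and the reported targets, lay above that share. With peaks of a q-value below 0.05, which 5.55% of all genes had, none of these 3 intervals did, and no gene of the 3 lists had a 5' UTR peak in both lists, where 2.77% of all genes did. Of the 9 lists the m5C machinery alone had an interval above the share of all genes in each of these stricter counts. That rests on 3 and 2 of 16 genes, some of them with few reads. Beyond the rule for list genes with peaks in both lists the names below were chosen after their values were seen. Ribosomal proteins, whose mRNAs carry short 5' TOP leaders, had 3 of 39 genes (7.69%, 2.65 to 20.3%), while 18 of the 39 had a 3' UTR peak, as did 7484 (59.0%) of the 12687 genes. RPL23A had 28 lactate and 98 ddH2O reads, with folds of 2.99 and 3.78. Its ratio was 0.443 (0.273 to 0.663) by normalized signal and 0.533 (0.329 to 0.798) by library sums, where it was not called lower. RPL6 had 188 and 428 reads, with a log2 ratio of -0.18 and a fold of 5.13 in the ddH2O list alone. Translation factors, the EIF and EEF genes, had 7 of 62 genes (11.3%, 5.58 to 21.5%), none of them in both lists and none with 20 reads. The name pattern also took EEF1AKMT1 and EEF1AKMT3, which methylate an elongation factor, and EIF2AK2, the kinase PKR. EIF3B, a core subunit of the initiation factor that joins the small ribosomal subunit, had 2 lactate and 12 ddH2O reads with a fold of 9.48 in the ddH2O list. EIF4H, a helper of the initiation helicase, had 12 lactate and 7 ddH2O reads with a fold of 4.79 in the lactate list.

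The SRSF and HNRNP splicing factors had 7 of 21 genes (33.3%, 17.2 to 54.6%), an interval above the 11.1% of all genes, and all 7 had their 5' UTR peaks in the ddH2O list alone, as did 860 (61.1%, 58.5 to 63.6%) of the 1407 genes with a 5' UTR peak. With a q-value below 0.05 the share was 14.3% (4.98 to 34.6%), which holds the 5.55% of all genes. HNRNPK, an RNA-binding protein of the KH type, was the only member of this list with 20 reads, 3 lactate and 21 ddH2O at its densest peak, a log2 ratio of -2.29. SRSF3, a splicing factor rich in arginine and serine, had a fold of 5.46 with 1 lactate and 0 ddH2O reads. The other peaks of the list held at most 5 lactate or 14 ddH2O reads.

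Zinc finger genes named ZNF had 57 of 414 genes (13.8%, 10.8 to 17.4%), 13 of them in both lists, and 20 merged peaks with at least 20 reads, of which 2 were higher and 2 lower. Their median log2 ratio was 0.10, and 0.59 under library sums, where 4 were higher and 1 lower. ZNF780B had 326 lactate and 334 ddH2O reads at its densest peak, 19625 bases from the start, a ratio of 2.01 (1.72 to 2.34), against 1.77 (1.52 to 2.07) by library sums. Another peak of ZNF780B had 8 and 26 reads with folds of 4.03 and 5.42. Its ratio was 0.409 (0.148 to 0.859) by normalized signal and 0.606 (0.219 to 1.27) by library sums, where the interval includes 1. ZNF544 had 36 and 76 reads, a ratio of 0.726 (0.467 to 1.08). ZNF232 had 26 and 50 reads, a ratio of 0.752 (0.441 to 1.21), and ZNF827 had 27 and 38 reads, a ratio of 1.00 (0.581 to 1.66).

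Genes with upstream open reading frames or stress-regulated translation had 6 of 22 genes (27.3%, 13.2 to 48.2%), none in both lists. AMD1, the polyamine enzyme with a regulatory upstream frame, had 20 lactate and 29 ddH2O reads 84 bases from its start. HIF1A, the hypoxia-inducible factor, had 5 and 18 reads at a window that lies also on HIF1A-AS1. NFE2L2, the activator of antioxidant genes, had 0 and 7 reads at a peak outside its RefSeq span and on LOC100130691, upstream of its listed start at a signed distance of -58480 bases. PPP1R15B had 3 and 2 reads. NRF1, a factor for mitochondrial genes, and AZIN1, an inhibitor of antizyme, had 7 lactate and 0 ddH2O reads each. With a q-value below 0.05 the share of this list was 9.09% (2.53 to 27.8%). None of the 22 immediate early genes with a peak had one in the 5' UTR (0 to 14.9%, an interval that holds the 11.1% of all genes), and 15 of them had a 3' UTR peak.

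Glycolysis and lactate transport had 3 of 23 genes (13.0%, 4.54 to 32.1%). Besides PFKP these were PKM, the pyruvate kinase of muscle and tumours, with 36 lactate and 60 ddH2O reads, folds of 6.60 and 9.13 and a ratio of 0.898 (0.571 to 1.37), and SLC16A1, the lactate transporter MCT1. SLC16A1 had 1 and 6 reads at a peak with a fold of 3.85 in the ddH2O list and no reads at another. The ratio of PKM lay within counting error of no difference under both scalings.

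The m5C machinery had 3 of 16 genes (18.8%, 6.59 to 43.0%), an interval that holds the 11.1% of all genes. The same 18.8% had a peak with a q-value below 0.05, beside 5.55% of all genes, and 2 genes, FMR1 and RAD52, had 5' UTR peaks in both lists (12.5%, 3.50 to 36%), beside 2.77%. RAD52, a DNA repair protein listed as a reader of m5C at breaks, had 22 lactate and 4 ddH2O reads, with folds of 10.5 and 2.43. Its ratio was 5.30 (2.15 to 25.3) by normalized signal and 8.36 (3.40 to 39.9) by library sums. The ddH2O peak of RAD52 had a q-value of 0.816, above 0.05, and lay 12853 bases from the start. FMR1, an RNA-binding protein and m5C reader, had 7 lactate and 1 ddH2O reads at a peak 13752 bases from the start, and 0 and 4 reads at another 384 bases from it. TET1, an oxidase of 5-methylcytosine, had 6 and 18 reads. Of the mRNAs reported elsewhere as NSUN2 targets, 3 of 8 had a 5' UTR peak (37.5%, 13.7 to 69.4%), namely CDK1, SHC1 and GRB2, and all of these peaks were in the ddH2O list alone, as for 61.1% of all genes with a 5' UTR peak. With a q-value below 0.05 the share was 12.5% (2.24 to 47.1%). SHC1 had 2 and 4 reads and GRB2 1 and 5 reads.

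Among 11 genes on which the study worked, STC1, the secreted glycoprotein stanniocalcin 1, was the only one with a 5' UTR peak. The peak of STC1 at chr8:23854572-23854854 was called in both lists, with a fold of 4.25 and a q-value of 0.00139 with lactate and a fold of 7.46 and a q-value of 1.51e-10 with ddH2O. Its window held 15 lactate and 16 ddH2O reads, a ratio of 1.17 (0.535 to 2.51) by normalized signal and 1.71 (0.785 to 3.68) by library sums. At this depth no difference between the libraries was detectable at STC1.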

How the data were processed

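NSUN2 RIP-seq of PANC-1 cells was analysed from the deposited files, with 1 IP and 1 input library for lactate and for ddH2O. Per the submitters' processing notes the tools were fastp 0.20.1, HISAT2 2.1.0, MACS2 2.2.7.1, bedtools 2.29.2, HOMER 4.11.1 and DiffBind on GRCh38. The authors called peaks per IP library against its input and deposited for each peak a fold over input (a ratio), a p-value, a q-value, −log10 values of both and a gene region. They merged both lists and deposited, from MAnorm, a normalized signal per IP library, a read density. The deposited table also holds the authors' own log2 ratio, mean log2 density and P of that comparison, and these were not used. No input counts were analysed here.

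A density was read as the reads plus 1 per kb of a 2000-base window after a straight line in mean log2 density (slope 0.169, intercept -0.204) had been added to the log2 ratio. Reads came out whole, within 0.05 reads, in both libraries for 116482 of 116484 windows, and the other 2 are MT-RNR2 and MALAT1. On simulated windows 99.9991% of reads were recovered. Overlap meant a shared base or more (bedtools 2.31.1). Ratios were called at a fold over 2 with at least 20 reads in both windows together. With 1 library per group no test was made. Shares have Wilson intervals, medians order-statistic intervals and ratios exact (Clopper-Pearson) intervals at the 95% level. They cover only counting error or, for medians, the spread between peaks, starts or genes. Reads are not independent molecules, since no molecular identifiers were used. Distances were taken from the peak summit to the nearest start in a RefSeq table (GRCh38.p14, 250 bases before to 50 bases after each start) that holds the gene's symbol. Coordinates are counted from 1.

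Genes were named by rule: the 5 highest folds per list with a q-value below 0.05, the 5 densest merged peaks, the 5 highest and 5 lowest ratios with at least 50 reads, list genes with a 5' UTR peak in both lists (up to 4 a list) and genes the study worked on. One of the latter is not reported here. The members and lists were chosen with earlier results of these data known, and the comparison within genes and the library sums of peaks called in both lists were added after seeing the data. Alternatives were a q-value below 0.05, a fold of at least 4, equal list sizes, other overlaps, read minimums, library sums and windows that overlap no other. The analysis ran in Python 3.11.15 with scipy 1.17.1, numpy 2.4.6, matplotlib 3.10.9 and pandas 2.3.3.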

Additional observations from a re-analysis of the deposited data

How the results depend on the processing

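No paired analysis was possible because each treatment had 1 IP library. Of 51 values recomputed under other settings, single gene lists left out, 18 stayed within 1.5 times (counts) or within their counting interval, 2 of them lactate values that equal list sizes leave as they were. The median log2 ratio turned to 0.055 with library sums and calls in both lists together, a setting chosen after seeing the data. The order of lactate and ddH2O median folds (3.24 and 3.03) turned with a q-value below 0.05 and at shared peaks, and that of the 9 gene lists together against all genes turned in both lists. With a q-value below 0.05 the lists held 293 and 804 5' UTR peaks (lactate and ddH2O), overlapping the other list in 81.9% and 29.4%, with median folds of 4.79 and 4.85, and 6.39% of the genes of all 9 gene lists together had one beside 5.55% of all genes (14.2% beside 11.1% with all peaks, 2.72% beside 2.77% in both lists). At a fold of at least 4 the numbers were 227 and 526, and with equal list sizes 833 for ddH2O. Of exon and UTR peaks the shares were 4.11% and 5.12%. An overlap of 50% of both peaks gave 51.2% and 20.9%, and 5' UTR partners alone 57.0% and 23.4%. Shared peaks had median folds of 3.76 and 5.32. Higher and lower members numbered 55 and 74 under library sums, 2 and 37 at a fold over 4, 146 and 774 with no read minimum, 8 and 65 with at least 50 reads, and 14 and 46 with windows that overlap no other. The median log2 ratio was -0.13 under library sums, -0.74 with no minimum and -0.33 for peaks called in both lists. Of 1835 members 1303 had under 20 reads, and the depth of the inputs is unknown.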

Other observations

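The X chromosome held 4.33% (3.01 to 6.18%) of the lactate and 4.04% (3.17 to 5.14%) of the ddH2O 5' UTR peaks, against 2.89% and 2.75% of all protein-coding peaks. On chromosome 19, where many zinc finger genes lie, the shares were 4.64% and 4.88%, against 4.54% and 4.12%. TCEAL9 and TCEAL8, shown above, are among the X-linked members, and both chromosomes were chosen after values were seen.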
